A study of Mus musculus with 8 samples.

Results

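DNA replication and nucleotide supply were followed in cultured keratinocytes (KCs) through 51 genes, which code for the proteins that mark and open replication origins, copy the DNA and make its building blocks. The 51 genes were taken by symbol, as the rows of the deposited gene tables whose name equalled a listed symbol. All 51 were found among the 41457 genes of the tables. KCs had been isolated from tail skin of adult C57BL/6 mice (C57BL/6J in the paper) of the genotype Wildtype and grown untreated in serum-free KC medium. Poly(A) RNA was sequenced from cultures of 1 week (4 samples) and of 3 weeks (4 samples), to learn which genes differ between young and older cultures. The design text speaks of 4 independent experiments, and the paper says that a batch of KCs was followed to both times, but how many mice stood behind a sample was not given. Reads on exons came to 18491296, 20026084, 13896807 and 17006563 in replicates 1 to 4 at 1 week and to 18127283, 15973250, 15903829 and 14096649 in replicates 1 to 4 at 3 weeks. All lists of values below follow this order of replicates.

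As background, a cell licenses its origins before it copies its DNA. The origin recognition complex, Cdc6 and Cdt1 load the ring of Mcm proteins, and kinases then recruit Cdc45 and the GINS complex, which turn the ring into the helicase that unwinds DNA for the polymerases, while ribonucleotide reductase, thymidylate synthase and thymidine kinase supply the nucleotides. In epidermis, DNA synthesis is a trait of basal KCs, and KCs leave the cell cycle as they move towards the skin surface. Many genes of this machinery are known targets of E2F transcription factors.

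The labelled cell type was checked against marker genes. The 9 KC markers summed to 16389, 14273, 15897 and 17138 at 1 week and 9384, 10639, 9784 and 9996 at 3 weeks (RPKM, reads scaled to exon length and mapped reads), with Krt14 as the most abundant gene, and each 1 week sample exceeded each 3 weeks sample. Of the 9 markers, 2 were called lower, Krt5 (log2 fold change -1.32, adjusted p = 0.00103) and Itga6 (log2 fold change -0.75, adjusted p = 0.0391), while Krt14 (log2 fold change -0.23, adjusted p = 0.414) and the other 6 were not called. In RPKM, the 5 markers of suprabasal KCs summed to 5.56, 3.96, 20.6 and 26.7 at 1 week and 3.86, 3.96, 3.93 and 13.6 at 3 weeks, and their most abundant gene was Lor. The RPKM of 6 melanocyte markers summed to 4.76, 3.25, 15.5 and 21.00 at 1 week and 1.28, 5.60, 3.11 and 3.16 at 3 weeks, led by Tyrp1, while Tyr and Sox10 reached at most 0.199 and 0.130 RPKM. Replicates 3 and 4 at 1 week thus had the largest sums of both lists. Krt1 of the suprabasal list (log2 fold change -2.44, adjusted p = 0.0132) and Pmel of the melanocyte list (log2 fold change -2.06, adjusted p = 0.0266) were called lower at 3 weeks with no overlap, like most of the 51 genes, and what part other cells had in the values of the 51 genes was not tested. The 6 fibroblast markers, led by Col1a1, summed to 3.40, 4.49, 2.93 and 2.70 at 1 week and 2.68, 2.30, 3.29 and 4.65 at 3 weeks, and the 6 leukocyte markers, led by Lyz2, to 4.10, 2.44, 2.15 and 1.24 at 1 week and 1.76, 2.61, 3.70 and 1.64 at 3 weeks, with no read of Cd207 in any sample. Both lists overlapped between the groups. The 5 endothelial markers, led by Kdr, summed to 0.575, 0.646, 0.573 and 0.434 at 1 week and 0.285, 0.504, 0.449 and 0.397 at 3 weeks, with overlap as well. The 4 Merkel cell markers, led by Krt20, summed to 0.0528, 0, 0.0876 and 0.0818 at 1 week and 0.529, 0.379, 0.505 and 0.316 at 3 weeks. This sum, though small, was larger in each 3 weeks sample than in any 1 week sample, and the genes had too few reads to be tested. The rise was that of Krt20, with 1, 0, 1 and 0 reads at 1 week and 19, 12, 16 and 8 reads at 3 weeks. Atoh1 and Isl1 had no read at 3 weeks, and the mean of Sox2 was 0.0286 RPKM at 1 week and 0.00827 RPKM at 3 weeks.

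The machinery as a whole was far lower at 3 weeks. The 51 genes had a summed RPKM of 639, 566, 850.1 and 957 at 1 week and 207, 229.7, 225 and 157 at 3 weeks, and all samples of the older cultures lay far under the lowest of the younger ones. Their percentage of the exon reads was 0.244, 0.219, 0.332 and 0.372 at 1 week and 0.0784, 0.0860, 0.0805 and 0.0604 at 3 weeks. The mean summed RPKM was 753 ± 182 at 1 week (SD, n = 4) and 205 ± 33.3 at 3 weeks (SD, n = 4). In RNA of whole cultures, fewer cells in the cycle and less RNA per cell cannot be told apart.

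Gene by gene, 48 of the 51 genes were lower at 3 weeks at an adjusted p under 0.05 (edgeR quasi-likelihood test, Benjamini-Hochberg over all 12590 tested genes), compared with 17.0% of all tested genes. None of the 51 was higher, whether by the adjusted p (0 by edgeR, 0 by DESeq2, 0 by limma) or at an unadjusted p under 0.05 (0 by each of them), while 15.7% of all tested genes were called higher. The median log2 fold change was -1.76 for the 51 genes and 0.03 for all tested genes. A fall of at least 4-fold was called for 22 of the 51 genes and 3.00% of all tested genes, and 5 genes fell at least 8-fold: Mcm10, Mcm6, Tk1, Mcm5 and Timeless. In 47 of the 51 genes each sample at 1 week exceeded each sample at 3 weeks in scaled counts, as did 18.5% of all tested genes. The genes not called were Orc4, Gins4 and Rfc1.

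**Figure D1:**
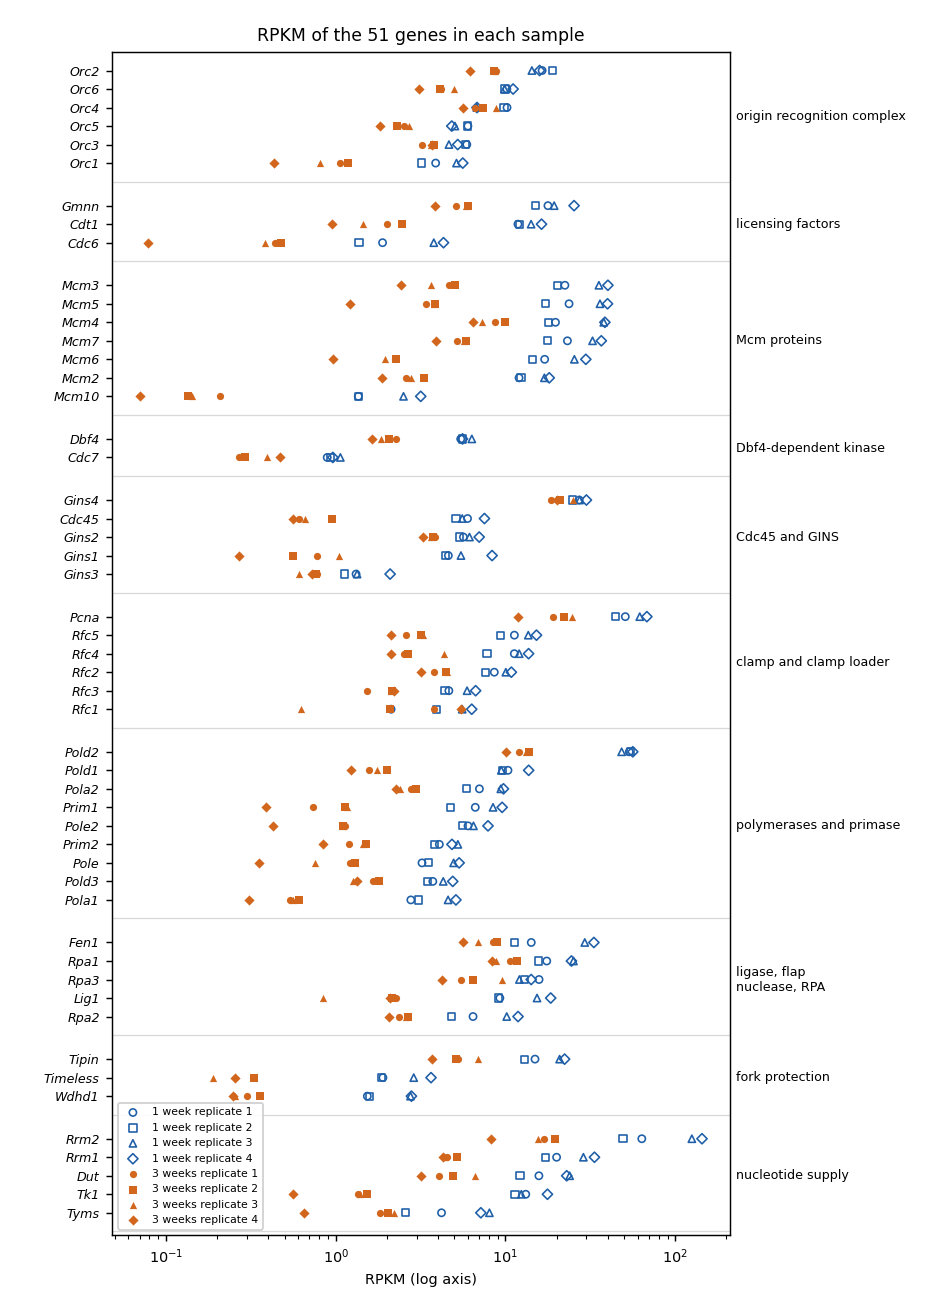
RPKM (log axis) of each of the 51 genes in the 4 samples at 1 week (open symbols) and the 4 samples at 3 weeks (filled symbols), grouped by role. The filled symbols lie left of the open ones in most rows, and mix with them for Orc4, Gins4 and Rfc1.

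Libraries differed within each group. By scaled counts, replicate 4 held the highest value of the 1 week group for 40 of the 51 genes and for 28.02% of all tested genes, and replicate 2 held the lowest for 40 of the 51 and for 24.9% of all. At 3 weeks, replicate 4 held the lowest value for 43 of the 51 genes and for 39.3% of all. Since replicates 3 and 4 at 1 week also had the largest sums of melanocyte markers, the test was repeated without both, a choice made after seeing the data: 43 of the 51 genes were then lower, with a median log2 fold change of -1.52, compared with 11.5% of all genes tested in that fit and their median of 0.03. The calls lost there were those of Fen1 (log2 fold change -0.64, against -1.39 in all samples), Gins2 (-0.46 against -0.57), Gins3 (-0.63 against -0.87), Tyms (-0.87 against -1.53) and Rpa3 (-1.004 against -0.90), so that Rpa3 lost its call with no smaller fold change. Libraries also differed by transcript length: the median deviation from the group mean of the 25% of tested genes with the longest exons, minus that of the 25% with the shortest, was -0.21, -0.01, 0.11 and 0.10 at 1 week and 0.21, -0.05, -0.53 and 0.40 at 3 weeks (log2).

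**Figure D2:**
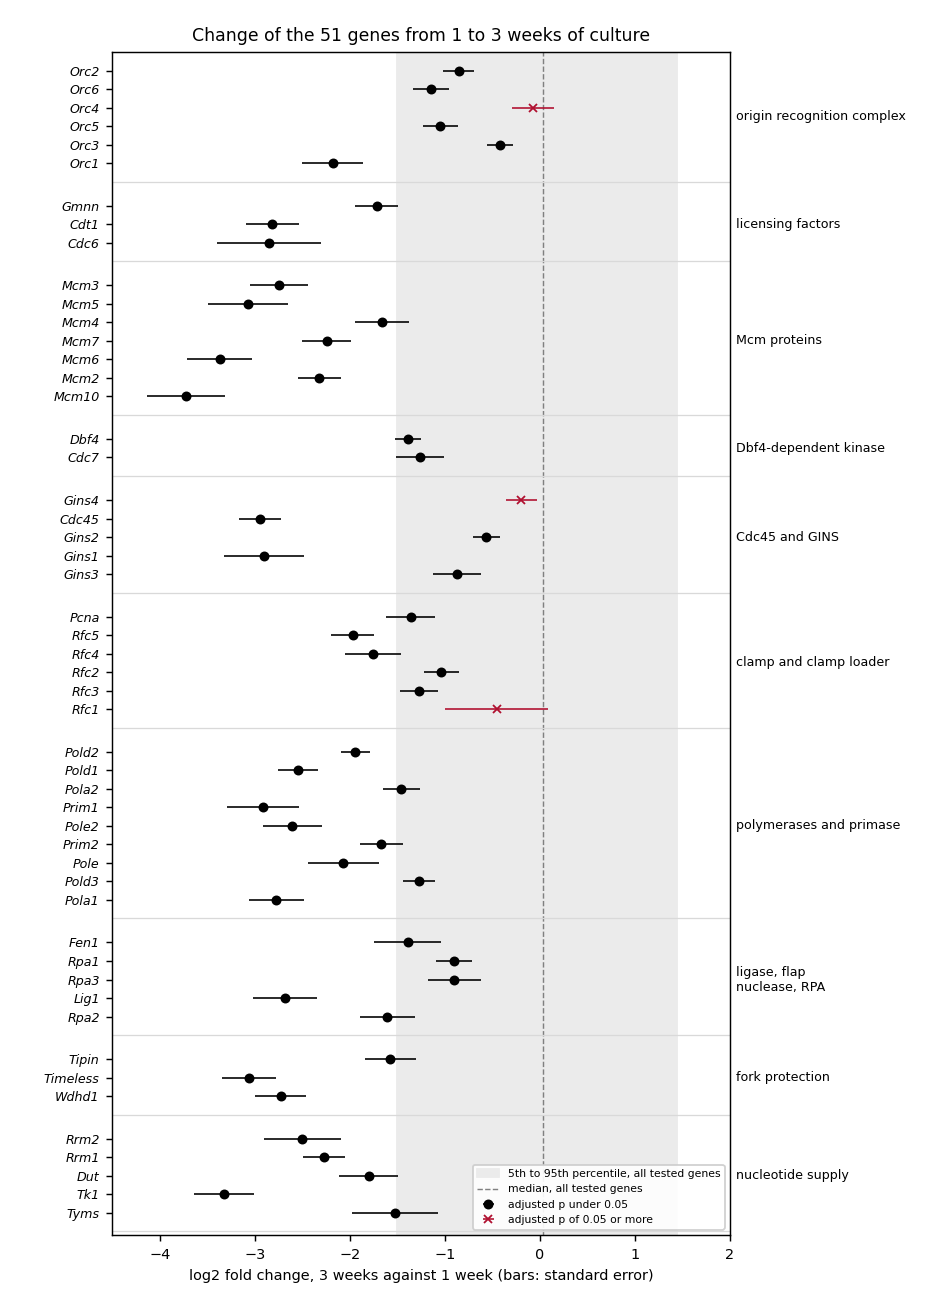
Log2 fold change from 1 to 3 weeks with its standard error for each of the 51 genes, grouped by role, over a grey band from the 5th to the 95th percentile of all tested genes (-1.50 to 1.44). Crosses mark Orc4, Gins4 and Rfc1, which were not called.

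Promoters are shown for the 6 genes with the lowest log2 fold changes, since the genes moved together and E2F sites are known in this family. The windows run from 250 bases before to 50 bases after a gene start and come from RefSeq (build GRCm38.p6), written 5′ to 3′ on the strand of the gene. Capitals mark the searched words on either strand: the E2F words TTTGGCGC, TTTCCCGC, TTTCGCGC and TTTGCCGC, the words TTTGAA and TTCGAA of the cell cycle homology region (CHR), and CCAAT. Mcm10 (chr2:5012742-5013041), Mcm6 (chr1:128359656-128359955), Tk1 (chr11:117825965-117826264) and Cdc45 (chr16:18811923-18812222) lie on the minus strand, Mcm5 (chr8:75109259-75109558) and Timeless (chr10:128237816-128238115) on the plus strand. The window of Timeless lies inside the gene as the deposited tables place it. The RefSeq start it was built on is 6001 bases from the deposited gene start.
Mcm10: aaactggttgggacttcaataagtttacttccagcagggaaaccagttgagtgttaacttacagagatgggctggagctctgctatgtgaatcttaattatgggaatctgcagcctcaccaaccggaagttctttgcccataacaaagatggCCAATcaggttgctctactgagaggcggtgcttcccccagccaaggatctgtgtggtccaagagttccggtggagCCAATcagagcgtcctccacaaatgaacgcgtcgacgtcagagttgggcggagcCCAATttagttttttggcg
Mcm6: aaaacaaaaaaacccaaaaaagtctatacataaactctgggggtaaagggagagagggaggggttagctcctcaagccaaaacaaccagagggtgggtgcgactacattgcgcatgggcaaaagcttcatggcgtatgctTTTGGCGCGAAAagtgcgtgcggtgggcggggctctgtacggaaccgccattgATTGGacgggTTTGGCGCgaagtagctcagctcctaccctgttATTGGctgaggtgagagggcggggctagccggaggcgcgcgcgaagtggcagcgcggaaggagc
Tk1: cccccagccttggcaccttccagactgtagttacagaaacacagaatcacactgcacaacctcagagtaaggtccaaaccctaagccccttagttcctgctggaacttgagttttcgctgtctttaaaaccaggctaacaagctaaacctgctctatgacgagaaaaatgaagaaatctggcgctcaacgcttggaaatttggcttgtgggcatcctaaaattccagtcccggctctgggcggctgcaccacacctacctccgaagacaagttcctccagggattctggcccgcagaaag
Mcm5: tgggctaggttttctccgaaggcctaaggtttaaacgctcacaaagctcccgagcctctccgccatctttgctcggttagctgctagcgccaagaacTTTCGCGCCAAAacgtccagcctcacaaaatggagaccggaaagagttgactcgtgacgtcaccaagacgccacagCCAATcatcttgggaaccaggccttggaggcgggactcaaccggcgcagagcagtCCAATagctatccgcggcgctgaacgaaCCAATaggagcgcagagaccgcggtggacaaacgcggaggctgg
Timeless: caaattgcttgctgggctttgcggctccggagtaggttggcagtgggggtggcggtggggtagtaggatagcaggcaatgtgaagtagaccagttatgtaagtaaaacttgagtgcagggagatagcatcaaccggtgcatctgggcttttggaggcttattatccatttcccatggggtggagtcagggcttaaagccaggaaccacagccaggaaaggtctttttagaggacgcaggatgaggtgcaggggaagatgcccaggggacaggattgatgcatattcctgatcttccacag
Cdc45: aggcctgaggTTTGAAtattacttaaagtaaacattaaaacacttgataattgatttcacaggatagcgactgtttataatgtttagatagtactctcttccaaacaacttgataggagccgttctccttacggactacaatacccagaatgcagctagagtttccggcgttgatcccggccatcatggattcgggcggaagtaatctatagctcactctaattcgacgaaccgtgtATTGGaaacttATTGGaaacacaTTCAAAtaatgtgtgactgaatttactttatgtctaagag

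The Mcm6 window holds 3 E2F words, of which a pair overlaps on opposite strands, and 2 CCAAT words. In the Mcm5 window 2 overlapping E2F words form a run of capitals, with 3 CCAAT words. The Mcm10 window has 3 CCAAT words and that of Cdc45 has 2 CHR and 2 CCAAT words, while those of Tk1 and Timeless hold none of the letters searched. The Mcm10 window ends in tttggcg, the beginning of the E2F word TTTGGCGC, and a word that crosses the window end was not counted. Of the 51 genes, 42 had an entry, in 51 windows in all. The genes without an entry were Gmnn, Mcm4, Gins1, Gins2, Gins4, Rfc2, Prim2, Pole and Tipin.

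An E2F word stood in 15 of the 51 windows (29.4%), in 3.98% of the windows of tested genes and in 2.26% of all 32851 windows of the table. CCAAT stood in 25 windows (49.02%), in 37.7% of those of tested genes and in 37.4% of all. A CHR word stood in 10 windows (19.6%), in 13.98% of those of tested genes and in 19.2% of all. The 15 genes with an E2F word had a median log2 fold change of -2.60, and the 27 genes with an entry and no such word had -1.60. Mcm10, whose window was cut as said above, and Timeless were counted among these 27 genes. For CCAAT the medians were -2.18 with the word (23 genes) and -1.80 without it (19 genes). For CHR words the order was the opposite, with -1.39 (9 genes) against -2.18 (33 genes). Of the 51 windows, 45 were built on a RefSeq start within 1000 bases of the gene start in the deposited tables. Those further off were the window of Timeless and some of the windows of Orc2, Orc4, Mcm7 and Lig1. The E2F word of Lig1 lay in such a window, built on a RefSeq start 1543 bases away. These are counts of letters with no test, and say nothing of binding.

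**Figure D3:**
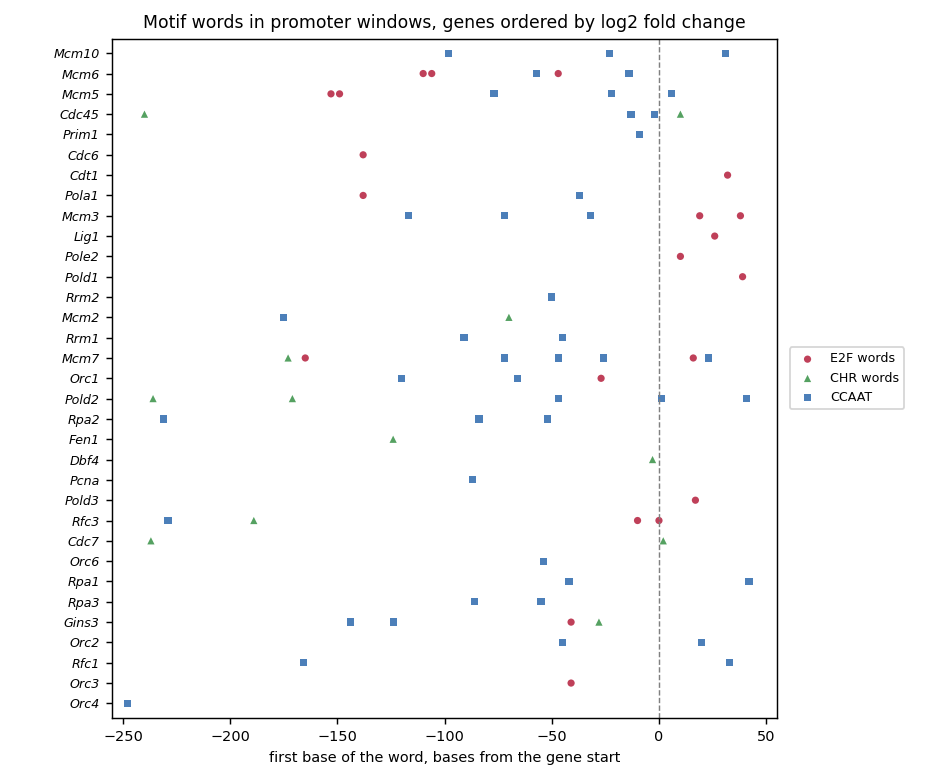
First base of each E2F, CHR and CCAAT word, in bases from the gene start, in the promoter windows of those of the 51 genes that hold at least 1 word, ordered by log2 fold change with the lowest at the top. Of the 45 CCAAT matches, 28 begin between 100 bases before the start and the start itself, as do 6 of the 21 E2F matches.

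The origin recognition complex marks the sites where replication can start. Of its 6 genes, 5 fell, with a median log2 fold change of -0.95. Orc2, the most abundant, had 16.4, 18.9, 14.3 and 15.9 RPKM at 1 week and 8.74, 8.53, 8.70 and 6.18 RPKM at 3 weeks, and fell by 0.86 on the log2 scale (SE 0.17, adjusted p = 0.00492). Its groups did not overlap, and replicate 4 was the lowest at 3 weeks. Orc1, the subunit known to vary over the cell cycle, had 3.88, 3.20, 5.15 and 5.61 RPKM at 1 week and 1.06, 1.19, 0.805 and 0.430 RPKM at 3 weeks, and fell by 2.18 on the log2 scale (SE 0.32, adjusted p = 0.00138). The 3 weeks samples of Orc1 all lay far under the 1 week samples. Orc4 had 10.2, 9.79, 6.78 and 6.80 RPKM at 1 week and 6.60, 7.33, 8.73 and 5.59 RPKM at 3 weeks, with log2 fold change -0.07 (SE 0.22, adjusted p = 0.832). Its groups overlapped, as replicates 3 and 4 at 1 week lay among the samples at 3 weeks. Orc6 decreased by 1.15 (log2, SE 0.19, adjusted p = 0.00223), Orc5 decreased by 1.05 (log2, SE 0.18, adjusted p = 0.00292) and Orc3 decreased by 0.42 (log2, SE 0.14, adjusted p = 0.0413). The fall of Orc3 was the smallest called among the 51 genes, and was not called with total gene reads, which include introns (log2 fold change -0.12, adjusted p = 0.443). Its call was also lost when replicate 1, 2 or 4 of either group was left out, with adjusted p up to 0.112 (without replicate 1 at 3 weeks), and in the 3 preparations whose table number occurs at both times, with that number as a block (adjusted p = 0.113).

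Cdc6 and Cdt1 load the Mcm ring onto origins, and geminin (Gmnn) binds Cdt1 and keeps origins from being licensed again. All 3 genes fell. Gmnn was the most abundant, with 17.8, 15.01, 19.4 and 25.3 RPKM at 1 week and 5.13, 6.02, 5.86 and 3.86 RPKM at 3 weeks, and fell by 1.72 on the log2 scale (SE 0.23, adjusted p = 0.000839). Its 1 week replicates were all above the 3 weeks replicates. Cdc6 had 1.89, 1.37, 3.78 and 4.31 RPKM at 1 week and 0.441, 0.477, 0.384 and 0.0781 RPKM at 3 weeks, and fell by 2.85 on the log2 scale (SE 0.54, adjusted p = 0.00444). Replicate 4 at 3 weeks held the lowest value of Cdc6, resting on 6 reads, and the groups did not overlap. Cdt1 decreased by 2.82 (log2, SE 0.28, adjusted p = 0.000339), although only 24.96% of its reads were unique to it.

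Mcm2 to Mcm7 form the helicase ring, and Mcm10 helps to start it. All 7 genes fell, with a median log2 fold change of -2.75. Mcm4 was the most abundant over all 8 samples, though not at 1 week, and changed least, with 19.7, 17.98, 37.9 and 38.5 RPKM at 1 week and 8.63, 9.90, 7.31 and 6.43 RPKM at 3 weeks, and fell by 1.66 on the log2 scale (SE 0.28, adjusted p = 0.00266). Replicates 3 and 4 at 1 week were the highest, and the groups did not overlap. Mcm10 changed most of all 51 genes: it had 1.36, 1.37, 2.51 and 3.17 RPKM at 1 week and 0.209, 0.134, 0.142 and 0.0708 RPKM at 3 weeks, and fell by 3.72 on the log2 scale (SE 0.41, adjusted p = 0.000446). Its lowest sample, replicate 4 at 3 weeks, rested on 8 reads, and all samples at 3 weeks lay under those at 1 week. The other Mcm genes fell by 2.32 (Mcm2), 2.75 (Mcm3), 3.07 (Mcm5), 3.37 (Mcm6) and 2.25 (Mcm7) on the log2 scale.

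The subunits of the ring, which joins 1 copy of each, did not fall evenly, a pattern singled out after the values were seen. The ratio of the highest to the lowest RPKM among Mcm2 to Mcm7 within a sample was 1.97, 1.64, 2.24 and 2.22 at 1 week and 3.87, 4.36, 3.74 and 6.68 at 3 weeks. By RPKM, the lowest gene was Mcm2 in each 1 week sample and Mcm6 in each 3 weeks sample, where Mcm4 was the highest. The groups did not overlap in this ratio. RPKM divides reads by exon length, which is 6956 bases for Mcm2 and 3589 to 4666 bases for Mcm3 to Mcm7. In reads, Mcm2 exceeded Mcm6 in replicates 1 and 2 at 1 week (1592 and 1770, against 1511 and 1386). The order of these genes at 1 week and the size of the ratio thus depend on exon length, while the fall of each gene does not.

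Dbf4 activates the kinase Cdc7, which fires licensed origins. Dbf4 had 5.45, 5.59, 6.34 and 5.59 RPKM at 1 week and 2.27, 2.06, 1.85 and 1.63 RPKM at 3 weeks, and fell by 1.39 on the log2 scale (SE 0.14, adjusted p = 0.000363). Cdc7 had 0.892, 0.928, 1.07 and 0.962 RPKM at 1 week and 0.269, 0.291, 0.393 and 0.472 RPKM at 3 weeks, and fell by 1.26 on the log2 scale (SE 0.25, adjusted p = 0.00516). Both pairs of groups were apart, and replicate 4, the lowest 3 weeks sample for Dbf4, was the highest for Cdc7.

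Cdc45 and the 4 GINS proteins complete the active helicase. Of the 5 genes, 4 fell. Cdc45 had 5.98, 5.11, 5.56 and 7.52 RPKM at 1 week and 0.612, 0.954, 0.660 and 0.563 RPKM at 3 weeks, and fell by 2.95 on the log2 scale (SE 0.22, adjusted p = 0.000180). The 1 week samples exceeded the 3 weeks samples several fold. Gins4, the most abundant of the 5, had 27.2, 24.9, 27.3 and 29.96 RPKM at 1 week and 18.5, 21.1, 25.05 and 20.03 RPKM at 3 weeks, with log2 fold change -0.20 (SE 0.16, adjusted p = 0.379). Replicate 3 at 3 weeks reached the range of the 1 week samples, so that the groups overlapped, and without it Gins4 was called lower (-0.37, adjusted p = 0.0400). On log2(RPKM + 1) in limma, Gins4 was also called lower (-0.36, adjusted p = 0.0364).

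The partners of Gins4 in this complex differed from it and from each other. Gins1 decreased by 2.90 (log2, SE 0.42, adjusted p = 0.00123), Gins3 decreased by 0.87 (log2, SE 0.25, adjusted p = 0.0257) and Gins2 decreased by 0.57 (log2, SE 0.14, adjusted p = 0.0158). Only 19.2% of the Gins2 reads were unique, and with unique reads alone its call was lost (log2 fold change -0.72, adjusted p = 0.103). The call of Gins3 was lost without replicate 4 at 1 week (adjusted p = 0.0680) and without replicate 1 or 2 at 3 weeks (adjusted p = 0.0559 and 0.0623). It was also lost in the 3 preparations with a shared table number, fitted with that number as a block (adjusted p = 0.0808). Gins1 rested on 6 reads in its lowest sample.

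Pcna is the sliding clamp that holds polymerases on DNA, and Rfc1 to Rfc5 form its loader. Of the 6 genes, 5 fell. Pcna had 50.8, 44.5, 61.8 and 68.03 RPKM at 1 week and 19.00, 22.1, 24.6 and 11.8 RPKM at 3 weeks, and fell by 1.36 on the log2 scale (SE 0.26, adjusted p = 0.00437). Its highest sample at 3 weeks was well under its lowest at 1 week. Rfc5 had 11.3, 9.32, 13.6 and 15.2 RPKM at 1 week and 2.61, 3.17, 3.29 and 2.11 RPKM at 3 weeks, and fell by 1.97 on the log2 scale (SE 0.22, adjusted p = 0.000496). The groups of Rfc5 were apart as well. Rfc4, Rfc3 and Rfc2 fell by 1.76, 1.27 and 1.04 on the log2 scale.

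Rfc1, the large subunit, had the largest spread of the 51 genes among the 3 weeks replicates on the log2 scale (SD of log2 RPKM 1.36). It had 2.12, 3.91, 5.56 and 6.33 RPKM at 1 week and 3.77, 2.10, 0.627 and 5.44 RPKM at 3 weeks, with log2 fold change -0.46 (SE 0.54, adjusted p = 0.555). The groups overlapped, with replicate 3 lowest and replicate 4 highest at 3 weeks and replicate 1 lowest at 1 week. In log2 deviation from the group mean, Rfc1 (6021 bases of exons, outside the longest 25% of genes) stood at -1.63 in replicate 3 and 1.15 in replicate 4 at 3 weeks, in the order of the length difference given above. Orc4 and Dbf4, with longer exons, were lowest in replicate 4 at 3 weeks, and the part of length in these values was not tested.

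Primase (Prim1, Prim2) and polymerase alpha (Pola1, Pola2) lay down primers, which polymerases delta (Pold1, Pold2, Pold3) and epsilon (Pole, Pole2) extend. All 9 genes fell, with log2 fold changes between -2.92 and -1.27. Pold2, the most abundant, had 53.6, 54.7, 48.3 and 56.2 RPKM at 1 week and 11.97, 13.8, 13.3 and 10.1 RPKM at 3 weeks, and fell by 1.94 on the log2 scale (SE 0.15, adjusted p = 0.000184). Its replicates were close within each group and the groups far apart. Prim1, the catalytic primase subunit, had 6.64, 4.74, 8.45 and 9.56 RPKM at 1 week and 0.735, 1.13, 1.16 and 0.387 RPKM at 3 weeks, and fell by 2.92 on the log2 scale (SE 0.38, adjusted p = 0.000815). Each 1 week sample exceeded each 3 weeks sample, and replicate 4 was the lowest at 3 weeks. Pold3 changed least in this group, with 3.73, 3.46, 4.30 and 4.89 RPKM at 1 week and 1.67, 1.81, 1.26 and 1.33 RPKM at 3 weeks, and fell by 1.27 on the log2 scale (SE 0.17, adjusted p = 0.000920). Its groups did not overlap either.

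Rpa1 to Rpa3 coat single-stranded DNA, Fen1 trims flaps between Okazaki fragments and Lig1 seals them. All 5 genes fell. Rpa1 had 17.5, 15.7, 25.1 and 24.5 RPKM at 1 week and 10.6, 11.6, 8.83 and 8.32 RPKM at 3 weeks, and fell by 0.91 on the log2 scale (SE 0.19, adjusted p = 0.00630). Lig1 had 9.27, 9.11, 15.3 and 18.5 RPKM at 1 week and 2.28, 2.15, 0.842 and 2.09 RPKM at 3 weeks, and fell by 2.68 on the log2 scale (SE 0.34, adjusted p = 0.000694). In both genes the groups were apart, and replicate 3 was the lowest 3 weeks sample of Lig1. Rpa3 had 15.8, 12.9, 12.1 and 14.2 RPKM at 1 week and 5.48, 6.48, 9.59 and 4.25 RPKM at 3 weeks, and fell by 0.90 on the log2 scale (SE 0.28, adjusted p = 0.0349). Replicate 3 of Rpa3 came closest to the 1 week samples, and the call was lost when any 1 of 6 libraries was left out (replicates 1 to 4 at 1 week, 1 and 2 at 3 weeks), with adjusted p up to 0.0929. Rpa2 decreased by 1.60 (log2, SE 0.29, adjusted p = 0.00337). Fen1 decreased by 1.39 (log2, SE 0.35, adjusted p = 0.0150), with 11.96% of its reads unique, and was no longer called without replicates 3 and 4 at 1 week (log2 fold change -0.64, adjusted p = 0.0983).

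Timeless and Tipin form a pair that steadies the moving fork, and Wdhd1 ties the helicase to polymerase alpha. All 3 genes fell. Tipin was the most abundant, with 14.9, 12.9, 20.8 and 22.3 RPKM at 1 week and 5.25, 5.11, 6.91 and 3.68 RPKM at 3 weeks, and fell by 1.58 on the log2 scale (SE 0.27, adjusted p = 0.00261). Timeless had 1.90, 1.86, 2.88 and 3.64 RPKM at 1 week and 0.325, 0.328, 0.189 and 0.256 RPKM at 3 weeks, and fell by 3.06 on the log2 scale (SE 0.28, adjusted p = 0.000292). The groups of both genes were apart, and the fall of Timeless exceeded that of its partner. Wdhd1 decreased by 2.73 (log2, SE 0.27, adjusted p = 0.000330).

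Rrm1 and Rrm2 form ribonucleotide reductase, Tyms and Tk1 make thymidine monophosphate by synthesis and by salvage, and Dut clears dUTP. All 5 genes fell. Rrm2 was by mean RPKM the most abundant of the 51 genes at 1 week, although Pold2 (54.7 RPKM) exceeded it in replicate 2. In reads, Rrm1 exceeded Rrm2 in replicates 1 and 2 at 1 week (4193 and 3914, against 3351 and 2809). Their exon lengths are 11012 bases for Rrm1 and 2771 bases for Rrm2. Rrm2 had 63.5, 49.2, 125 and 144 RPKM at 1 week and 16.7, 19.5, 15.5 and 8.23 RPKM at 3 weeks, and fell by 2.50 on the log2 scale (SE 0.40, adjusted p = 0.00205). Replicates 3 and 4 at 1 week stood above the others, and the lowest 1 week sample still exceeded all at 3 weeks. Tk1 had 13.2, 11.4, 12.4 and 17.7 RPKM at 1 week and 1.35, 1.52, 1.38 and 0.563 RPKM at 3 weeks, and fell by 3.32 on the log2 scale (SE 0.32, adjusted p = 0.000317). Its groups were far apart, with 27.2% of its reads unique. Tyms had 4.20, 2.59, 8.04 and 7.16 RPKM at 1 week and 1.82, 2.04, 2.20 and 0.648 RPKM at 3 weeks, and fell by 1.53 on the log2 scale (SE 0.45, adjusted p = 0.0306). Replicate 2 at 1 week lay close above the 3 weeks samples in RPKM and among them in scaled counts. The call of Tyms was lost when replicate 3 or 4 at 1 week or replicate 1 or 2 at 3 weeks was left out, with adjusted p up to 0.0790. Without both replicates 3 and 4 at 1 week, its log2 fold change was -0.87 (adjusted p = 0.240). Rrm1 decreased by 2.27 (log2, SE 0.22, adjusted p = 0.000323) and Dut decreased by 1.80 (log2, SE 0.31, adjusted p = 0.00288).

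Ratios of gene pairs within a sample do not depend on how libraries are scaled, so they show which partners changed unequally. Over 14 pairs, mean log2 ratios of RPKM were compared by exact permutation of the samples (70 arrangements, two-sided), where the smallest possible p was 0.0286. In 9 pairs the groups did not overlap, the adjusted p over the 14 pairs was 0.0444, and 8 ratios fell while 1 rose. These calls stand at the limit of the design: at least 9 of the 14 pairs must reach the smallest p for any to pass, and with unique reads or with any library left out 0 passed (at most 8 pairs at the smallest p), although the 9 pairs kept their direction in each.

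Rrm2 was set against Rrm2b, the subunit known to serve DNA repair outside S phase, and the ratio was 24.4, 16.7, 52.1 and 75.6 at 1 week and 6.20, 6.85, 5.87 and 2.74 at 3 weeks. It fell by 2.80 on the log2 scale (exact permutation p = 0.0286, adjusted p = 0.0444), and all 1 week samples were above the 3 weeks samples. Rrm2 over Rrm1 was 3.18, 2.85, 4.35 and 4.30 at 1 week and 3.72, 3.75, 3.50 and 1.92 at 3 weeks, and did not differ beyond the spread (log2 difference -0.21, exact permutation p = 0.571, adjusted p = 0.615). The ratio of the loader Cdt1 to its inhibitor Gmnn was 0.666, 0.804, 0.731 and 0.643 at 1 week and 0.393, 0.409, 0.248 and 0.247 at 3 weeks, and fell by 1.17 on the log2 scale (exact permutation p = 0.0286, adjusted p = 0.0444). The older cultures thus had less Cdt1 RNA per Gmnn RNA in each sample.

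Among polymerase subunits, Pola2 over Pola1 was 2.53, 1.91, 2.04 and 1.91 at 1 week and 5.20, 4.88, 4.28 and 7.29 at 3 weeks, and rose by 1.35 on the log2 scale (exact permutation p = 0.0286, adjusted p = 0.0444). This was the ratio that rose, since Pola1 fell more than Pola2. Prim1 over Prim2 was 1.63, 1.24, 1.61 and 1.97 at 1 week and 0.612, 0.752, 0.800 and 0.463 at 3 weeks, and fell by 1.31 on the log2 scale (exact permutation p = 0.0286, adjusted p = 0.0444). Pold1 over Pold3 was 2.77, 2.78, 2.20 and 2.80 at 1 week and 0.940, 1.11, 1.40 and 0.926 at 3 weeks, and fell by 1.28 on the log2 scale (exact permutation p = 0.0286, adjusted p = 0.0444). In both ratios the catalytic subunit fell more than its partner, with no overlap between the groups. Pole2 over Pole overlapped, with mean ratios of 1.55 and 1.09 (geometric means, exact permutation p = 0.0571, adjusted p = 0.0727).

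Against Orc2, the ratio of Cdc6 was 0.115, 0.0726, 0.264 and 0.272 at 1 week and 0.0505, 0.0559, 0.0442 and 0.0126 at 3 weeks, and that of Orc1 was 0.236, 0.169, 0.360 and 0.353 at 1 week and 0.122, 0.139, 0.0926 and 0.0697 at 3 weeks. On the log2 scale they fell by 2.14 and by 1.38, both at an exact permutation p of 0.0286 (adjusted p = 0.0444). Cdc6 and Orc1 thus fell more than the core subunit Orc2 in these libraries. With unique reads, Orc1 over Orc2 kept its direction but was the called pair that no longer reached the smallest p. Of the reads, 37.7% were unique for Orc1 and 46.3% for Orc2. Orc6 over Orc2 had mean ratios of 0.629 at 1 week and 0.508 at 3 weeks and overlapped (exact permutation p = 0.0571, adjusted p = 0.0727). Mcm10 over Mcm2 fell by 1.42 on the log2 scale (exact permutation p = 0.0286, adjusted p = 0.0444), and Tk1 over Tyms fell by 1.86 on the log2 scale (exact permutation p = 0.0286, adjusted p = 0.0444). Neither Rfc3 over Rfc1 (exact permutation p = 0.543, adjusted p = 0.615) nor Dbf4 over Cdc7 (exact permutation p = 0.714, adjusted p = 0.714) passed, and both overlapped between the groups.

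**Figure D4:**
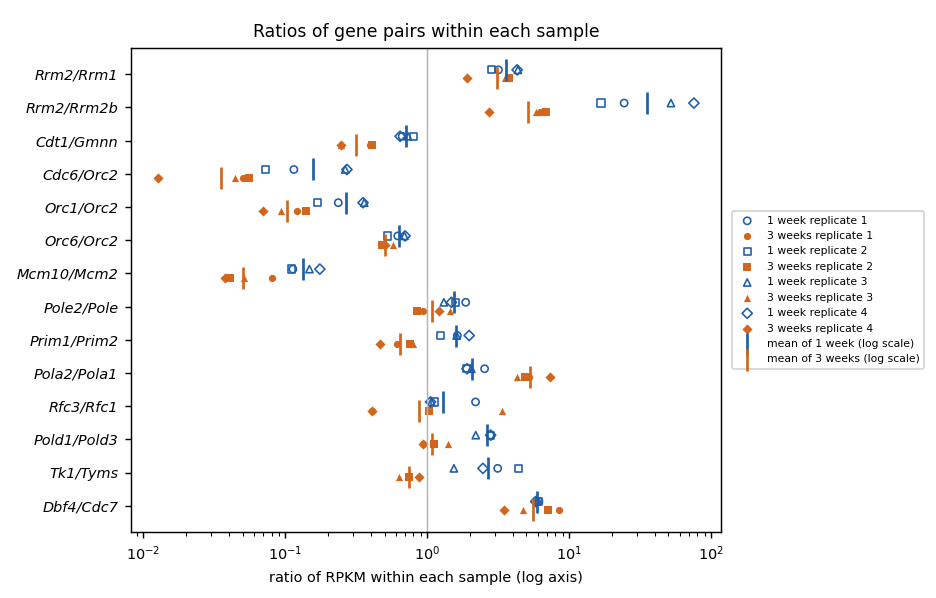
Ratio of the RPKM of 2 genes within each sample (log axis) for the 14 pairs, at 1 week (open symbols) and 3 weeks (filled symbols), with vertical ticks at the mean of the log ratios. Rrm2/Rrm2b lies lower and Pola2/Pola1 higher at 3 weeks in each sample.

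Other genes of the pathway were counted from a separate list of 70 genes, of which 68 were tested: 44 were lower at 3 weeks and 1 was higher, with a median log2 fold change of -1.10, compared with 17.0% lower, 15.7% higher and a median of 0.03 among all tested genes. Among 16 regulators of origin firing and licensing, 12 were lower, again beside 17.0% of all tested genes. Ccna2, the S phase cyclin A2, had 23.8, 20.4, 31.9 and 39.4 RPKM at 1 week and 1.91, 2.37, 1.64 and 0.950 RPKM at 3 weeks, and fell by 3.90 on the log2 scale (SE 0.33, adjusted p = 0.000204). Its kinase partner Cdk2 had 4.12, 3.53, 5.14 and 5.53 RPKM at 1 week and 2.52, 2.81, 2.17 and 2.09 RPKM at 3 weeks, and fell by 0.77 on the log2 scale (SE 0.18, adjusted p = 0.0107). Both were apart between the groups, with the cyclin falling further than the kinase.

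Of 22 accessory factors of forks, polymerases and clamps, 12 were lower (17.0% of all tested genes). Clspn, the checkpoint mediator claspin, had 0.731, 0.750, 2.17 and 2.67 RPKM at 1 week and 0.142, 0.110, 0.0339 and 0.0758 RPKM at 3 weeks, and fell by 3.95 on the log2 scale (SE 0.57, adjusted p = 0.00128). Its values in replicates 3 and 4 at 3 weeks rested on 4 and 8 reads. The checkpoint kinase gene Atr had 1.08, 0.970, 1.21 and 1.42 RPKM at 1 week and 0.606, 0.525, 0.492 and 0.409 RPKM at 3 weeks, and fell by 1.04 on the log2 scale (SE 0.18, adjusted p = 0.00285). The samples of the groups did not overlap in either gene. Top2a, the topoisomerase of cycling cells, had 8.73, 12.5, 20.4 and 25.2 RPKM at 1 week and 2.24, 1.77, 0.642 and 1.41 RPKM at 3 weeks, and fell by 3.32 on the log2 scale (SE 0.42, adjusted p = 0.000734). Its groups were apart as well, with replicate 3 lowest at 3 weeks.

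Of 10 genes of chromatin assembly behind the fork, 7 were lower (17.0% of all tested genes). Uhrf1, which helps to copy DNA methylation, had 10.1, 13.4, 26.7 and 31.03 RPKM at 1 week and 2.39, 2.70, 1.54 and 1.29 RPKM at 3 weeks, and fell by 3.19 on the log2 scale (SE 0.41, adjusted p = 0.000717). Ssrp1, a subunit of the histone chaperone FACT, had 61.3, 68.7, 65.8 and 73.3 RPKM at 1 week and 35.6, 36.4, 30.4 and 36.5 RPKM at 3 weeks, and fell by 0.79 on the log2 scale (SE 0.10, adjusted p = 0.000767). The 1 week samples of both genes lay above the 3 weeks samples, with little spread for Ssrp1.

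Of 22 genes of nucleotide metabolism, 20 were tested, 13 were lower and 1 was higher (17.0% and 15.7% of all tested genes), while Cda and Cmpk2 had too few reads to be tested. Cda, a deaminase of cytidine, had 0.457, 0.188, 0.337 and 0.438 RPKM at 1 week and 1.40, 2.00, 1.94 and 0.526 RPKM at 3 weeks. Against the direction of most of the list, each 3 weeks sample of Cda exceeded each 1 week sample, with no test. These values rested on 9, 4, 5 and 8 reads at 1 week and 27, 34, 33 and 8 reads at 3 weeks. Replicate 4 at 3 weeks, with 8 reads, was thus hardly apart from replicate 1 at 1 week, with 9. Shmt1, an enzyme that supplies carbon units for nucleotide synthesis, had 9.47, 8.45, 8.50 and 10.7 RPKM at 1 week and 1.60, 1.80, 1.98 and 3.07 RPKM at 3 weeks, and fell by 1.98 on the log2 scale (SE 0.21, adjusted p = 0.000433). The 1 week samples of Shmt1 were all above the 3 weeks samples. Tk2, the mitochondrial thymidine kinase, had 5.69, 5.48, 4.66 and 4.70 RPKM at 1 week and 5.68, 6.68, 6.84 and 6.04 RPKM at 3 weeks, with log2 fold change 0.47 (SE 0.15, adjusted p = 0.0409). It was the gene called higher, its groups overlapped in RPKM but not in scaled counts, and the call was lost under several alternatives. Rrm2b had 2.60, 2.94, 2.40 and 1.90 RPKM at 1 week and 2.70, 2.84, 2.63 and 3.00 RPKM at 3 weeks, with log2 fold change 0.35 (SE 0.15, adjusted p = 0.106). The samples of Rrm2b overlapped in RPKM, while in scaled counts each 3 weeks sample exceeded each 1 week sample, and it was not called.

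**Figure D5:**
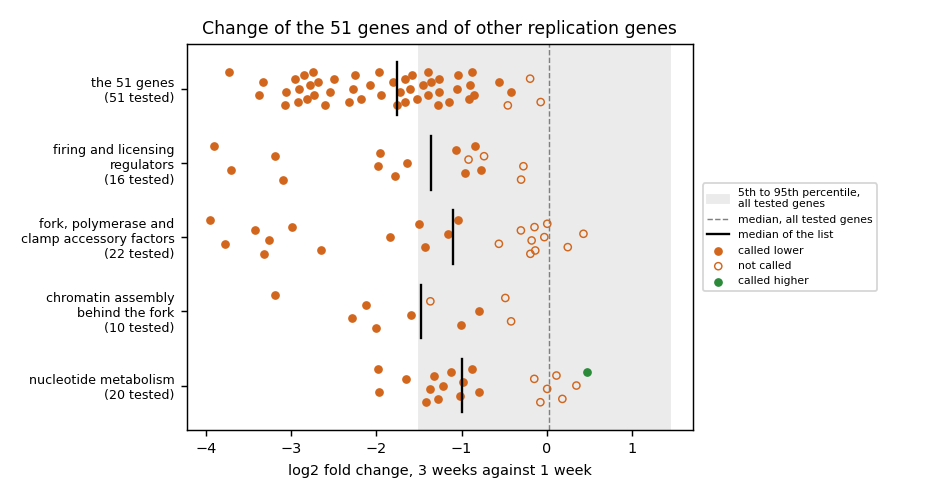
Log2 fold change from 1 to 3 weeks of the 51 genes and of the tested genes in the 4 further lists (each point a gene, filled where called, bars at the medians), over the 5th to 95th percentile of all tested genes in grey. The medians lie at -1.76 for the 51 genes and at -1.48 for chromatin assembly, the lowest of the further lists.

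Intron reads of the 51 genes were few. Orc3 alone had 130, 119, 106 and 151 at 1 week and 232, 176, 148 and 204 at 3 weeks, and was not lower in introns at 3 weeks. The other 50 genes together had 173, 197, 227 and 322 at 1 week and 181, 140, 140 and 196 at 3 weeks intron reads, so that the groups overlapped, while their exon reads came to 44478, 43041, 45669 and 62733 at 1 week and 13838, 13359, 12430 and 8188 at 3 weeks. Of these 50 genes, 34 had under 10 intron reads in each sample, too few to compare by gene.

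The 51 genes lie on 16 chromosomes of GRCm38. Chromosome 5 holds 10 of them (19.6%, against 6.32% of all tested genes) and chromosome 8 holds 6 (11.8%, against 5.26%). Mcm10 (ENSMUSG00000026669, chromosome 2, 4989714 to 5012791) and Rrm2 (ENSMUSG00000020649, chromosome 12, 24708241 to 24714146) are examples of their positions. A gene on the opposite strand with over 10 reads on average overlaps 12 of the 51, and since it is not stated that counting used the strand, reads of such pairs cannot be told apart. They are Orc2, Orc4, Orc6, Mcm7, Cdc45, Gins2, Rfc2, Rfc4, Rfc5, Lig1, Fen1 and Tk1. Under 50% of reads were unique in 7 genes: Fen1, Gins2, Cdt1, Tk1, Orc1, Pcna and Orc2.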

How the data were processed

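Poly(A) libraries were made by the authors, who used the CLC Genomics Workbench to align them to GRCm38. Whether counting used the strand was not stated. Per the file headers, the deposited counts are whole reads per gene (total and unique exon reads, total gene reads, intron reads), not normalized. The RPKM values that the authors deposited are total exon reads scaled to exon length and mapped reads, written with decimal commas. Genes were called most abundant by mean RPKM, so their order depends on these exon lengths.

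In R 4.3.3, edgeR 4.0.16 was run on total exon reads of all 8 samples (filterByExpr, TMM, glmQLFit and glmQLFTest without pairing, as the study's methods name unpaired tests and none for the transcriptome), with Benjamini-Hochberg adjustment over all tested genes and a threshold of 0.05. The paper states that batches of KCs were shared between the times. Table numbers 46, 49 and 90 occur at both, 47 and 57 at a single time, and 49 is replicate 3 at 1 week and replicate 2 at 3 weeks, so, if these numbers mark the batches, replicate numbers do not; fits with either number as a block were alternatives. The fit was tested on simulated counts first. DESeq2 1.42.0 and limma 3.58.1 served as alternatives. The SE of a log2 fold change is its size over the root of the F statistic. Scaled counts used TMM factors. Ratios of RPKM were tested by exact permutation (two-sided), with Benjamini-Hochberg adjustment over the 14 pairs. The 51 genes and the further lists were chosen with earlier results of these data known. Genes were named by a rule: in each role the gene most abundant over all 8 samples, those with the lowest and the highest log2 fold change and each gene not called; in each further list the called genes with the lowest and the highest log2 fold change, and Rrm2b and Top2a. A further gene of nucleotide metabolism is not reported here and is left out of the list and its counts. Other genes named were singled out after their values were seen. Promoter words were searched in Python 3.11.15. Alternatives were other scalings, filters, tests, read classes and blocks, and leaving out each sample. No pair of replicates agreed within sampling noise (chi-square per degree of freedom at least 15.4).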

Additional observations from a re-analysis of the deposited data

Results flagged for a closer look

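Values were singled out where the gap between the highest or lowest of 4 samples and its neighbour took more of the group's range than Dixon's 95% critical value for 4 samples, which chance does in about 1 in 20 groups. This held for 6 of 102 groups of RPKM values of the 51 genes and for 5 of 28 groups of ratios. Orc2 was 6.18 RPKM in replicate 4 at 3 weeks, against 8.53 to 8.74 RPKM in the other 3. Mcm5 was 1.21 RPKM in replicate 4 at 3 weeks, against 3.39 to 3.82 RPKM in the other 3. Dbf4 was 6.34 RPKM in replicate 3 at 1 week, against 5.45 to 5.59 RPKM in the other 3. Rfc3 was 1.53 RPKM in replicate 1 at 3 weeks, against 2.11 to 2.21 RPKM in the other 3. Pole2 was 0.425 RPKM in replicate 4 at 3 weeks, against 1.10 to 1.14 RPKM in the other 3. Lig1 was 0.842 RPKM in replicate 3 at 3 weeks, against 2.09 to 2.28 RPKM in the other 3. Replicate 4 at 3 weeks accounted for Orc2, Mcm5 and Pole2.

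Among the ratios, Rrm2/Rrm1 was 1.92 in replicate 4 at 3 weeks, against 3.50 to 3.75 in the other 3. The ratio Rrm2/Rrm2b was 2.74 in replicate 4 at 3 weeks, against 5.87 to 6.85 in the other 3. The ratio Cdc6/Orc2 was 0.0126 in replicate 4 at 3 weeks, against 0.0442 to 0.0559 in the other 3. The ratio Rfc3/Rfc1 was 2.19 in replicate 1 at 1 week, against 1.05 to 1.13 in the other 3. The ratio Pold1/Pold3 was 2.20 in replicate 3 at 1 week, against 2.77 to 2.80 in the other 3. Replicate 4 at 3 weeks was thus the lowest for the ratios with Rrm2 and Cdc6 as numerator. The causes were not tested.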

How the results depend on the processing

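The count of the 51 genes lower at 3 weeks ran from 42 to 49 over all alternatives, against 48, and from 44 to 49 with 1 sample left out; none was higher under any. The genes that lost their call under at least 1 alternative were Orc3, Rpa3, Tyms, Gins3, Gins2 and Fen1, apart from Cdc6, Gins1 and Mcm10, which were not tested when at least 10 reads in every sample were required. Of the log2 fold changes of the 51 genes, 925 values kept direction and call, 35 lost the call, 3 gained it (Gins4) and 3 changed sign. With 1 sample left out, Orc4 ran from -0.27 to 0.0441 and turned positive without replicate 1 at 1 week or replicate 4 at 3 weeks (0.0155 and 0.0441). Rfc1 ran from -0.89 to -0.15 with 1 sample left out. It was 0.11 without replicates 3 and 4 at 1 week, an alternative chosen after seeing the data. The cause was not tested.

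Of all tested genes, 2146 were lower and 1981 higher; with 1 sample left out 1631 to 2667 were lower and 1371 to 2284 higher. The count of higher genes was 1313 with limma on log2(RPKM + 0.1), 1281 on log2(RPKM + 1) and 953 without replicates 3 and 4 at 1 week. The limma fits called 3089 and 3090 genes lower, so that the share of all tested genes called lower was 24.5% on either scale. On log2(RPKM + 0.1) the median of all tested genes shifted to -0.16, that of the 51 genes was -1.93, and 29.8% of called genes were higher, against 48.00% by edgeR. RPKM was not scaled by TMM.

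Of the other replication genes, 44 were lower, 42 to 47 with 1 sample left out, 35 without replicates 3 and 4 at 1 week, 37 with at least 10 reads in every sample and 50 with limma on log2(RPKM + 1). The count called higher, 1, was 0 with upper-quartile scaling, with limma on either scale, with either block and without replicates 3 and 4 at 1 week, and 0 to 2 with 1 sample left out. Ratios passing numbered 0 with unique reads and 0 with any sample left out. With 1 sample left out, Rrm2/Rrm1 ran from -0.33 to 0.0184 and Dbf4/Cdc7 from -0.30 to 0.13, both positive without replicate 4 at 3 weeks. The log2 difference of Rfc3/Rfc1 ran from -1.22 to -0.21.

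The paper says that batches of KCs were shared between the times. For the table numbers found at both (46, 49 and 90), deviations from the mean of each group correlated at -0.27, 0.18 and 0.27 over all tested genes. In a fit of these 6 libraries with that number as a block, which also drops numbers 47 and 57, 46 of the 51 genes were lower (Orc3 and Gins3 lost their call), 1793 of all genes were lower and 1316 higher. Replicate numbers of the labels, which do not join the samples of number 49, correlated at -0.27, -0.13, -0.19 and 0.27 and were not taken to pair samples. With a replicate block, 1558 genes were lower and 1309 higher, with 42 of the 51 genes lower and 0 higher, 42 of the other replication genes lower and 0 higher, and 0 ratios passed, as paired sign flips cannot go below p = 0.125 (exact).

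Depth limits Cdc6, Gins1 and Mcm10, which had under 10 reads in at least 1 sample at 3 weeks. The p-values measure the spread between these cultures. By the table numbers, 47 occurs only at 1 week and 57 only at 3 weeks, so the groups differ in preparation too if these numbers mark preparations, and handling that differed with time cannot be told apart from time in culture.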
